A study of Mus musculus with 2 samples.

Results

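The transcripts of 8 transcription factors of the sympathoadrenal lineage, Phox2a, Hand1, Hand2, Gata2, Gata3, Insm1, Isl1 and Sox11, were followed in total RNA sequencing of mouse adrenal glands. They were picked by gene symbol, and all 8 were found among the 55536 annotated genes, with 24 annotated transcripts. Both libraries belong to 1 group, adrenal glands of 14-day-old male B6CASTF1/J mice, the first-generation offspring of C57BL/6J and CAST/EiJ parents; the labels name no treatment and no altered allele. Per the labels they are biological replicates 1 and 2, each begun from 300 ng of RNA with ERCC spike-ins added. They come from separate tissue samples under 1 donor record, and the labels describe pools of males, which they number differently in different fields, without saying how many animals each library holds. With a lone group, conditions could not be contrasted and no p-values are given. Replicate values show only the spread between these samples, which may be technical.

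The adrenal medulla derives from neural crest cells that give rise to chromaffin cells and to sympathetic neurons. A network of transcription factors gives these cells their noradrenergic character by switching on the enzymes of catecholamine synthesis and the machinery of secretory granules. Phox2a is a homeodomain protein, Hand1 and Hand2 are basic helix-loop-helix proteins, Gata2 and Gata3 are zinc finger proteins, Insm1 is a zinc finger protein of endocrine differentiation, Isl1 is a LIM homeodomain protein, and Sox11 is a high mobility group protein of immature neural cells.

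Summed expected counts came to 32963248 in replicate 1 and 36260745 in replicate 2, of which the 8 genes took 2881 and 2543. Levels are TPM, which corrects for transcript length and depth, from the deposited RSEM-format tables, and values in kallisto-format tables are called kallisto values. The share of all TPM on nuclear protein-coding genes was 27.4% in replicate 1 and 27.8% in replicate 2. Markers of both adrenal compartments were present: Th, Dbh, Pnmt and Chga of chromaffin cells summed to 850 TPM in replicate 1 and 827.6 in replicate 2, and Star, Cyp11a1, Cyp11b1 and Nr5a1 of the cortex to 3267 and 3660. The libraries stood apart in genes of other tissues, since 4 hepatocyte markers summed to 235.6 TPM in replicate 1 and 4138 in replicate 2, and 4 T cell markers to 19.3 and 2.86.

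Of the 8 factors, 6 reached at least 1 TPM in both libraries, as did 54.2% of the 22015 nuclear protein-coding genes. Hand2, required in mice for noradrenergic differentiation of sympathetic neurons, was the highest, at 10.7 TPM in replicate 1 and 9.6 in replicate 2. Gata2 followed at 9.68 and 7.09 TPM, and Phox2a, an activator of the dopamine beta-hydroxylase gene, at 8.14 and 6.94. The ranges over the libraries overlapped between Hand2 and Gata2, and between Gata2 and Phox2a, although the order was the same within each library. Hand2 exceeded Gata2 by log2 ratios of 0.14 in replicate 1 and 0.44 in replicate 2, and by 0.045 and 0.17 by kallisto. Gata2 exceeded Phox2a by 0.25 and 0.031, and by 0.20 and 0.24 by kallisto. The order of Gata2 and Phox2a rested on Gata2-203, an annotated fragment of 423 bases with few counts. It had 2.94 and 2.15 RSEM TPM in replicates 1 and 2, and 3.87 and 4.38 by kallisto. Without it Gata2 would lie below Phox2a in both libraries by both quantifications.

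Gata3, without which mouse embryos are short of noradrenaline, was at 5.08 TPM in replicate 1 and 4.68 in replicate 2. Hand1, the relative of Hand2, was at 3.91 and 3.24 TPM, and Insm1, needed in mice for chromaffin cell differentiation, at 1.82 and 1.62. From Phox2a downward each factor's lower library lay above the next factor's higher library, by both quantifications. On mm10, Phox2a lies at chr7:101818313-101822726 on the plus strand, Gata3 at chr2:9857078-9890034 on the minus strand and Insm1 at chr2:146221921-146225020 on the plus strand.

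Isl1, which acts in the differentiation of sympathetic neurons, was at 1.21 TPM in replicate 1 and 0.85 in replicate 2, on either side of 1 TPM. Its expected counts were 79 (95% exact Poisson interval 62.5 to 98.5) and 62 (47.5 to 79.5). Sox11 was the lowest, at 0.27 and 0.2 TPM, from 73 counts (57.2 to 91.8) and 58 counts (44.0 to 74.98). These intervals cover counting error only. Isl1 lies at chr13:116298281-116309689 and Sox11 at chr12:27334264-27342574, both on the minus strand. Among nuclear protein-coding genes, Hand2 stood at percentiles 76.4 and 74.6 in replicates 1 and 2, and Sox11 at 35.3 and 34.1. The 8 factors together made up 0.0136% ± 0.00182 (SD, n = 2) of nuclear protein-coding TPM.

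**Figure D1:**
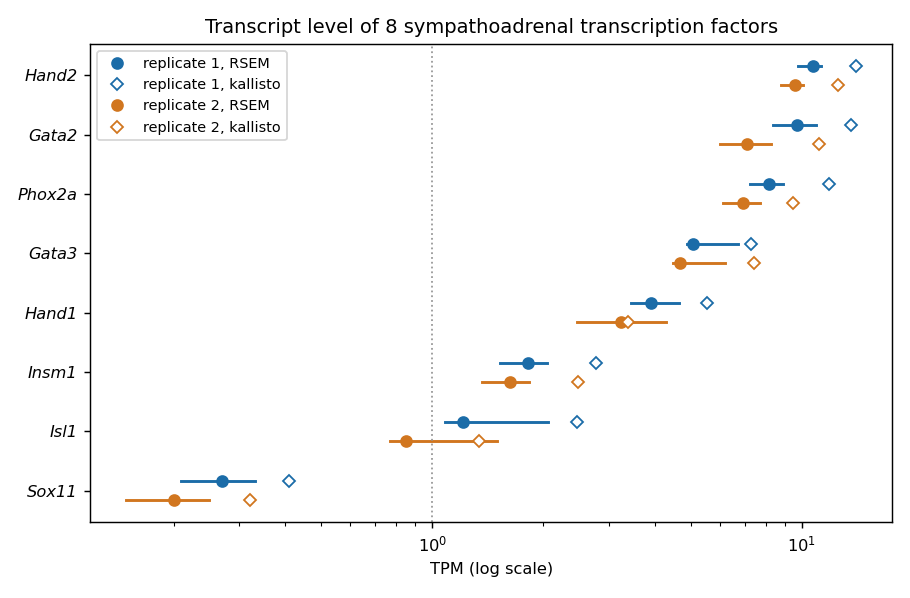
RSEM TPM (filled) and kallisto TPM (open) of the 8 factors in each library on a log axis, with lines for the deposited credibility bounds of the RSEM values and a dotted line at 1 TPM. Hand2 lies at 10.7 and 9.6 TPM and Sox11 at 0.27 and 0.2, and kallisto values lie to the right of the RSEM values.

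By kallisto all 8 factors had a higher mean, Hand2 at 13.3 ± 1.04 TPM and Sox11 at 0.365 ± 0.0610 (SD, n = 2). The same shift ran through the whole tables: the median nuclear protein-coding gene with at least 1 TPM in both libraries was 1.53 and 1.51 times higher by kallisto in replicates 1 and 2. The order of the 8 factors by mean was the same in both quantifications.

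The leading catecholamine and granule genes, a set such factors are known to act on, stood far above the factors, although the 3 transporter genes of the list, Slc18a1, Slc6a2 and Slc18a2, averaged 6.43, 6.05 and 5.04 TPM, below Hand2. Gch1 at 12.5 TPM and Ddc at 18.1 were above Hand2, but nearer to it than the leading genes. The transporter genes, Gch1 and Ddc are named after their values were seen. All 11 genes of that list were detected in both libraries, beside 54.2% of nuclear protein-coding genes. The granins led, with Chgb at 481.7 ± 37.5 TPM and Chga at 414.4 ± 9.58 (SD, n = 2). The enzymes Pnmt at 195.1 ± 13.7, Th at 132.0 ± 1.55 and Dbh at 97.3 ± 10.2 followed. Within each library, Hand2 lay below Th by a mean log2 ratio of -3.70 ± 0.0937, Phox2a by -4.13 ± 0.146 and Gata3 by -4.76 ± 0.0667. Th therefore had 13.02 times the TPM of Hand2, 17.6 times that of Phox2a and 27.1 times that of Gata3 by RSEM. By kallisto these folds were larger, at 17.45, 21.9 and 31.5.

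Members of the same protein family differed in level. Hand2 exceeded Hand1 by a log2 ratio of 1.51 ± 0.0811 (SD, n = 2), or 2.85-fold, with 1.45 in replicate 1 and 1.57 in replicate 2. By kallisto the spread was wider, at 1.61 ± 0.384, with 1.342 and 1.885. In replicate 2 RSEM put 0.77 of the 3.24 TPM of Hand1 on the short fragment Hand1-202, from 7 counts. Gata2 exceeded Gata3 by 0.76 ± 0.234, or 1.70-fold, with 0.93 and 0.60 in the replicates. Both RSEM differences were larger than their spread between the replicates. Part of the Gata2 excess lay on the short fragment Gata2-203, at 2.94 and 2.15 TPM in replicates 1 and 2 from 31.3 and 24.8 counts. Without that fragment Gata2 would lie closer to Gata3 in both libraries, and nearest in replicate 2.

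The GATA gene with the most transcript was neither member. Gata6, known for its role in the adrenal cortex, was at 19.6 TPM in replicate 1 and 19.4 in replicate 2, while Gata4 was at 0.43 and 1 TPM. Gata2 and Gata3 together lay below Gata4 and Gata6 together, by a log2 ratio of -0.62 ± 0.246 (SD, n = 2). Gata1, the erythroid GATA factor, was at 0.1 TPM (6 counts) in replicate 1 and 0.68 (44 counts) in replicate 2.

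Sox11 was the lowest of the 3 SoxC genes. Sox4, at 7.35 and 7.56 TPM in replicates 1 and 2, had 32.1 times its TPM, and Sox12 was at 4.26 and 3.96 TPM. Insm2, at 0.39 and 0.27 TPM, and Isl2, at 0.02 and 0.06 TPM from 1 and 2 counts, lay below Insm1 and Isl1. Of the 8 relatives described 3 were detected in both libraries, Gata6, Sox4 and Sox12, beside 54.2% of nuclear protein-coding genes. Gata1, Insm2 and Isl2 are named after their values were seen.

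**Figure D2:**
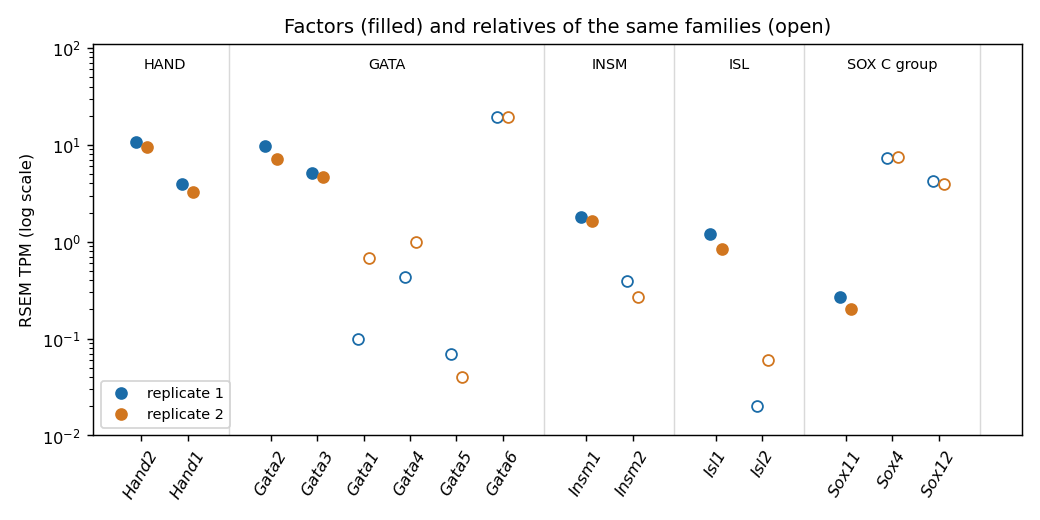
RSEM TPM on a log axis for 7 of the factors (filled) and 8 relatives (open) grouped by protein family, 1 point per library. Hand2 lies above Hand1, while Gata6 at 19.6 and 19.4 TPM lies above both GATA factors of the lineage and Sox4 lies above Sox11.

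Genes for proteins known to bind these factors were expressed. Hand proteins pair with the E proteins, and all 3 E protein genes exceeded Hand2: Tcf4 was at 45.0 ± 8.17 TPM, Tcf12 at 24.9 ± 3.65 and Tcf3 at 15.6 ± 1.24 (SD, n = 2). Ldb1, the cofactor that joins LIM homeodomain and GATA complexes, was at 19.5 ± 3.54 TPM, and Lmo4, a LIM-only protein, at 18.3 ± 0.523. All 10 partner genes were detected in both libraries, beside 54.2% of nuclear protein-coding genes. The Id proteins, which sequester E proteins, were led by Id2 at 101.0 ± 5.74 TPM, with Id1 at 36.8 ± 0.0707, Id3 at 25.4 ± 1.52 and Id4 at 1.05 ± 0.184. Of these 4 genes, 3 were detected in both libraries, beside the same 54.2%. In bulk tissue the levels of partner and Id genes do not show which cells carried them.

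Hand2 lies on chromosome 8 of mm10 from 57320983 to 57324633 on the plus strand, and Hand2os1, a long noncoding RNA known in heart as an upstream partner of Hand2, is read from the other strand and begins in the same promoter. Hand2os1 was at 14.5 TPM in replicate 1 and 13.1 in replicate 2, above Hand2 by a log2 ratio of 0.44 ± 0.0130 (SD, n = 2), or 1.36-fold. By kallisto the excess was 1.06 ± 0.0722, or 2.09-fold. It had fewer expected counts than Hand2, 530 against 792 in replicate 1 and 534 against 770 in replicate 2, and its higher TPM is a value per length. The library kit keeps strand, but no source used here says whether counting used it, and Hand2os1 exons overlap those of Hand2, so the split of overlapping reads between this pair is uncertain. The 250 bases before the Hand2 start are shown because both genes start there. Capitals mark 127 bases of a first exon of Hand2os1 that begins 124 bases before the Hand2 start, and a further annotated Hand2os1 transcript begins inside Hand2 and spans the whole window. The sequence is from RefSeq, GRCm38.p6, chr8:57320733-57320982, plus strand.

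Hand2 promoter: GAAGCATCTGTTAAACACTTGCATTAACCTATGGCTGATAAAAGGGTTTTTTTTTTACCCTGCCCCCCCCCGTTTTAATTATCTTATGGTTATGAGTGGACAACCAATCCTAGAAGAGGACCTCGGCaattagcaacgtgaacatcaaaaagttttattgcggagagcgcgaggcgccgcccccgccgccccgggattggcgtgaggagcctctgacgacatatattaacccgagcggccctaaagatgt

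Within this window GATAA, a core of the GATA motif, was found on 1 strand at 214 bases and on the other at 172 bases before the start, the E-box variant CATCTG at 246 bases, and TAATTA, a homeodomain core that reads alike on both strands, at 175 bases. TAATTA overlaps the second GATAA match. Over 32851 RefSeq windows of the same length, 22.6% held GATAA, 14.4% CATCTG and 4.84% TAATTA, with both strands searched. The general E-box CANNTG, held by 66.2% of windows, was found at 246 and 235 bases, the first being the CATCTG match. Windows were found for 6 of the 8 genes, 7 windows in all since Gata2 has 2, and GATAA was also found in those of Phox2a, Isl1 and Sox11. Such matches are letters in a window and not shown to be bound.

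Gata2 has 2 annotated starts, and the quantifications differed in how they shared its reads between them. It lies on chromosome 6 from 88193891 to 88207032 on the plus strand. Gata2-202 begins at the outer start with a first exon of 110 bases, Gata2-201 begins at the inner start, 88198334, with a first exon of 548 bases, and both carry a coding sequence of 1440 bases. Gata2-203 is a fragment of 423 bases from the inner start. In mice the outer exon is known from blood and neural cells and the inner one from most tissues with Gata2. RSEM put 59.3% ± 0.967 (SD, n = 2) of Gata2 TPM on Gata2-202, 30.3% ± 0.0416 on Gata2-203 and 0 counts on Gata2-201 in both libraries. Kallisto put 30.2% ± 1.18 on Gata2-202, 33.9% ± 7.64 on Gata2-203 and 25.6% ± 4.01 on Gata2-201. The Gata2-203 share rested on 12.5 and 15.8 kallisto counts in replicates 1 and 2, and on 31.3 and 24.8 RSEM counts. In counts, RSEM gave Gata2-202 579.2 and 449.5 in replicates 1 and 2, whereas kallisto gave it 312.3 and 267.3 and gave Gata2-201 331.3 and 239.9. The 2 transcripts share most of their length, and only reads that reach the first exon set them apart. The letters that differ are those of the first exon, in lower case in the next lines, joined to 15 bases of the second exon in capitals (GENCODE M21, plus strand; the second exon of Gata2-202 and Gata2-201 begins at 88199517).

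Gata2-202: accgcgccgcagtcgGGCCGCCCCACCTTC
Gata2-201: cgcgccgctgcgagtGGCCGCCCCACCTTC
Gata2-203: gctgggagggcagagGAGTCGGCAGCTGGC

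Gata2-202 and Gata2-201 join the same second exon, so the 15 capitals are alike and only the lower case bases can place a read. Gata2-203 differs from Gata2-201 at a junction inside what is the first exon of Gata2-201. In counts the gene total depended less on this split: Gata2 had 649 and 503 RSEM counts in replicates 1 and 2, and 691.0 and 548 kallisto counts. In TPM it did depend on the split, because few reads on the short Gata2-203 weighed heavily. RSEM gave Gata2-203 2.94 and 2.15 of the 9.68 and 7.09 TPM of Gata2 in replicates 1 and 2.

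Hand1 lies on chromosome 11 from 57828705 to 57832818 on the minus strand, and Hand1-201, which starts inside the first intron of Hand1-203, took 72.5% ± 5.26 of its TPM by RSEM (SD, n = 2). The rest was on Hand1-203, with 68.7 counts and 31.2%, in replicate 1, and on Hand1-202, with 7 counts and 23.8%, in replicate 2. Hand1-202 is an incomplete annotated fragment of 354 bases, so few reads weighed heavily in TPM. The gene's RSEM counts were 228 and 166 in replicates 1 and 2, a log2 difference of -0.61 per nuclear protein-coding count, replicate 2 over replicate 1, against -0.27 in TPM. Kallisto put 0 counts on Hand1-202 in both libraries and gave -0.70 in TPM. It put 84.0% of Hand1 TPM on Hand1-201 in replicate 1 and 100% in replicate 2. Hand1-203 had 34.5 kallisto counts in replicate 1 and 0 in replicate 2. Hand1-202 and Hand1-203 share the outer first exon, whose joining to the second exon reads as follows, with the second exon in capitals (GENCODE M21, minus strand).

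Hand1-203: gcccggaacaaactgAAACCTTCAAGAGGT

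Isl1 has 2 annotated coding forms, and within exon 5 Isl1-202 lacks 69 bases, or 23 codons, that Isl1-201 holds. They also differ outside the coding sequence: Isl1-201 has 2516 bases and Isl1-202 has 1198, with first exons of 295 and 28 bases and different ends. Their shares therefore do not measure use of the 23 codons alone. Isl1-201 took 61.6% ± 1.66 of Isl1 TPM (SD, n = 2) from 60.3 and 44.6 counts in replicates 1 and 2, and Isl1-202 took 23.4% ± 6.71 from 12.4 and 6.15 counts. By kallisto the shares were 54.2% ± 11.2 and 19.6% ± 7.66. Isl1-201 had the larger share in both libraries by both quantifications, on few reads. The retained intron form Isl1-205 took 15.01% ± 8.37 by RSEM, and kallisto placed 20.5% of Isl1 TPM in replicate 1 on another, Isl1-203. The bases of exon 5 found in Isl1-201 alone of the pair, all in capitals, lie at chr13:116301710-116301778, minus strand (GENCODE M21).

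Isl1-201: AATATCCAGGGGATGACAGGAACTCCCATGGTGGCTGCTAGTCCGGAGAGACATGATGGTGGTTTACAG

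Gata3 and Phox2a were mostly 1 transcript each. Gata3-201 took 90.03% ± 4.33 of Gata3 TPM and Phox2a-201 took 92.0% ± 3.89 of Phox2a TPM by RSEM (SD, n = 2). Kallisto gave 85.8% ± 14.7 and 92.3% ± 3.09. In replicate 2 kallisto placed 15.96% of Gata3 TPM on Gata3-202, a fragment from an outer start to which RSEM gave 0 counts. The noncoding Gata3-206 reached 10.5% and the retained intron form Phox2a-202 10.8% by RSEM, both in replicate 2. Hand2, Insm1 and Sox11 have 1 annotated transcript each. The genes that overlap Gata3 were low, with Gm13256 at 0.07 TPM in both libraries, 4930412O13Rik at 0.37 and 0.36 TPM and 9230102O04Rik at 0 counts. Inppl1, which overlaps the end of Phox2a from the other strand, was at 23.3 and 23.6 TPM. Since it is not known here whether counting used strand, the split of overlapping reads between Inppl1 and Phox2a is uncertain too.

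**Figure D3:**
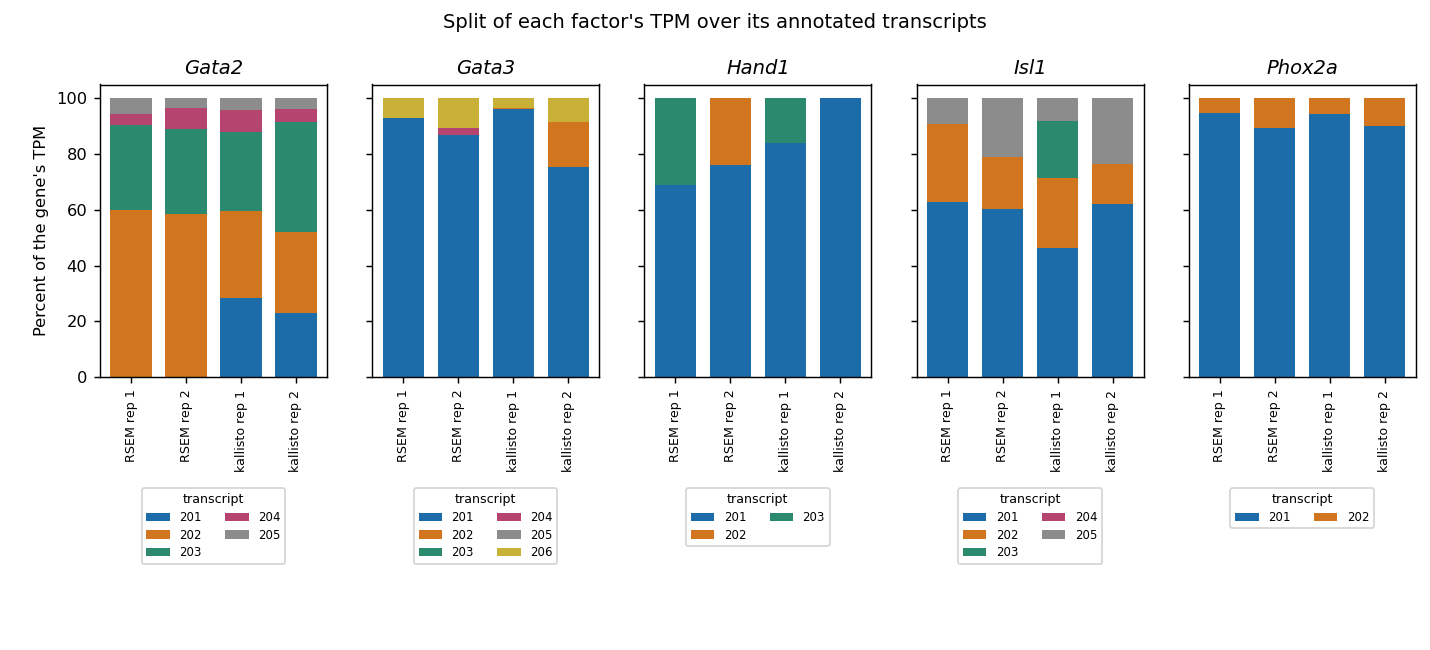
Percent of each factor's TPM on each annotated transcript (stacked bars, numbered as in GENCODE M21) for the 5 factors with several transcripts, by RSEM and kallisto in each library. Gata2-201 holds 0 in the RSEM bars and 28.5% and 22.8% in the kallisto bars of replicates 1 and 2, whereas Phox2a-201 leads in all 4 bars.

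All 8 factors were lower in the replicate 2 library, where 60.8% of the 17521 nuclear protein-coding genes above 0 TPM in either library were lower. Of genes with at least 1 TPM in both libraries, all 6 factors and 62.9% of 11942 genes were lower. None of the 8 passed 2-fold, beside 1.17% of those 11942 genes past 2-fold lower and 1.67% past 2-fold higher. By kallisto too none did, beside 1.94% of genes lower and 2.17% higher. The log2 ratios, replicate 2 over replicate 1, ran between -0.51 for Isl1 and -0.12 for Gata3. In log2(TPM + 1) the median difference over the 8 factors was -0.17, beside -0.057 over the 11942 genes. In bulk tissue, fewer cells of a type and less RNA per cell cannot be told apart.

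Gata2 was the factor whose credibility bounds did not overlap, at 6.01 to 8.23 TPM in replicate 2 and 8.36 to 10.9 in replicate 1. Such separation towards lower values in replicate 2 was found for 10.7% of the 11942 genes, and the other 7 factors had overlapping bounds. By kallisto 7 of the 8 factors were lower in replicate 2, beside 65.5% of 12702 genes with at least 1 kallisto TPM in both libraries. The exception was Gata3, at 7.40 kallisto TPM in replicate 2 and 7.28 in replicate 1. All 8 factors were also lower with TMM scaling, where 49.1% of the 11942 genes were lower, and with spike-in scaling, where 75.8% were.

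The counts of lower genes in the lists stand beside 62.9% of the 11942 genes lower in replicate 2, 49.1% with TMM and 75.8% with spike-in scaling. Catecholamine and granule genes were split in direction. Of the 11 genes 6 were lower and 5 higher in replicate 2 (4 lower with TMM and 8 with spike-in scaling), with a median difference of -0.012 in log2(TPM + 1), and Th was at 130.9 TPM in replicate 2 and 133.1 in replicate 1. Slc6a2, the noradrenaline transporter, was the gene of this list past 2-fold, at 3.13 TPM in replicate 2 and 8.98 in replicate 1. Of the 10 partner genes 7 were lower in replicate 2, with a median of -0.22, and this was 6 with TMM and 8 with spike-in scaling, shares near those of all genes. Of the 8 relatives 4 were lower, with a median of 0.0084, and 3 with TMM and 5 with spike-in scaling. Of the 4 Id genes 3 were lower, or 2 with TMM scaling.

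Neuronal genes had the lowest median of the 5 lists, -0.998 on the same log2(TPM + 1) scale. All 8 were lower in replicate 2 under each scaling and 5 of the 6 detected in both libraries were past 2-fold, beside 1.17% of all detected genes. Stmn2, a growth cone protein, was at 5.33 TPM in replicate 2 and 13.4 in replicate 1. Tubb3, the neuronal tubulin, was at 1.98 and 8.62 TPM, Prph, a filament of peripheral neurons, at 1.75 and 6.71, Gap43 at 1.36 and 5.48, and the RNA-binding Elavl4 at 1.03 and 2.55, with replicate 2 given before replicate 1. The summed level of the list was 13.8 TPM in replicate 2 and 39.9 in replicate 1, against 34.2 and 40.8 for the 8 factors. Chromaffin markers summed to 827.6 TPM in replicate 2 and 850 in replicate 1. Of these 4 markers 3 were lower in replicate 2, with Chga higher, beside 62.9% of the 11942 genes. This was 2 with TMM and 4 with spike-in scaling, beside 49.1% and 75.8% of genes. The parts of neuronal and chromaffin transcripts in the lower factor levels were not tested.

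**Figure D4:**
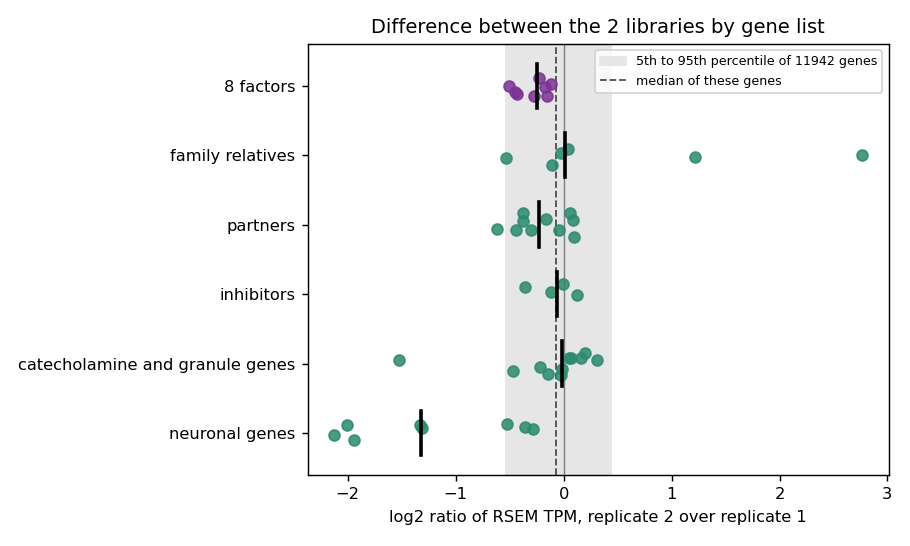
Log2 ratio of RSEM TPM, replicate 2 over replicate 1, for each gene with a mean of at least 0.2 TPM in the factors and 5 lists, with black bars at the list medians and grey for the 5th to 95th percentile of 11942 genes. The 8 factors lie between -0.51 and -0.12 inside the grey range. Beyond -1 lie 5 neuronal genes and Slc6a2, while the relatives Gata1 at 2.77 and Gata4 at 1.22 lie on the other side.

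Several of the factors are also known outside the medulla, and markers of those cells were summed in each library; of the 11942 genes 62.9% were lower in replicate 2. Gata2 acts in endothelium and mast cells: 5 of 5 endothelial markers were lower in replicate 2, with sums of 125.6 TPM in replicate 2 and 146.5 in replicate 1, and the 5 mast cell markers summed to 6.92 and 7.35, with Cpa3 and Mcpt4 higher and the other 3 lower in replicate 2. The fold between libraries, replicate 1 over replicate 2, was 1.37 for Gata2, 1.17 for the endothelial sum and 1.06 for the mast cell sum. Gata3 acts in T cells, whose 4 markers were 6.74-fold higher in replicate 1 as a sum, while Gata3 itself was 1.09-fold higher there. Gata3 is also a kidney gene, and the 4 kidney markers summed to 0.59 TPM in replicate 2 and 0.66 in replicate 1. Umod and Slc12a1 were at 0 counts in both libraries. Aqp2 had 18 counts in replicate 2 and 19 in replicate 1, and Lrp2 had 99 and 83. Hand2 is known in mesenchymal cells, and the 4 fibroblast markers, all lower in replicate 2, summed to 324.5 TPM there and 401.3 in replicate 1. Erythroid markers summed to 7.69 TPM in replicate 2 and 2.35 in replicate 1, and 3 Schwann cell markers to 25.4 and 14.97, although Sox10 was lower in replicate 2. The parts of endothelial, mast cell, T cell, kidney, fibroblast and Schwann cell transcripts in the factor levels were not tested.

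**Figure D5:**
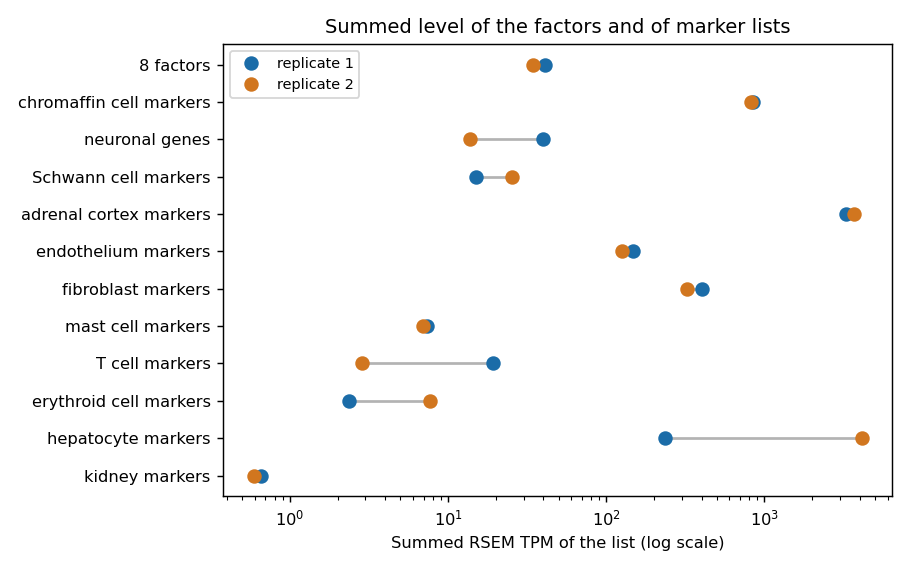
Summed RSEM TPM of the 8 factors, of the neuronal list and of 10 marker lists in each library, on a log axis, with grey lines joining the libraries. The sums of the factors (40.8 TPM in replicate 1, 34.2 in replicate 2) and chromaffin markers (850 and 827.6) lie close together between libraries. So do those of cortex, endothelial, fibroblast, mast cell and kidney markers, while T cell, erythroid, neuronal and hepatocyte sums lie far apart.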

How the data were processed

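Expected counts and TPM per gene and transcript were deposited by the authors, made from transcriptome alignments to mm10 with GENCODE M21, per the deposited file list, and their column names are those RSEM writes. Credibility bounds of TPM, treated as a signal because bounds, unlike TPM, have no fixed total, come from the same deposited tables, whose headers do not state the level. Estimated counts and TPM in a second set of deposited tables carry kallisto's column names, per the file headers, and were summed here to genes. For the aligner and all tool versions of the authors: not given in the sources used here. CAST alleles were read against mm10, and the effect was not measured.

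Means and SDs are over 2 libraries. Genes were called detected at 1 TPM in both. TMM factors came from edgeR 4.0.16 (R 4.3.3) on deposited expected counts rounded to whole numbers; all else used Python 3.11.15, pandas 2.3.3, matplotlib 3.10.9, scipy 1.17.1 and numpy 2.4.6. The members and lists were chosen with earlier results of these data known. All 8 members were described in full; further genes came from 5 gene lists and 10 marker lists, with up to 5 named per list by highest mean TPM and exceptions marked in the text. A few listed genes are not reported here and were left out of the counts and sums of their lists. With 2 libraries no likeness of pattern between genes can be measured. Quantification, estimate, scaling, minimum and pseudocount were varied, and each library was left out in turn.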

Additional observations from a re-analysis of the deposited data

How the results depend on the processing

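Depth limited Isl1 and Sox11, each under 100 counts in both libraries, and shares that rest on few counts, such as those of Isl1-202, Hand1-202 and Gata2-203. Through Hand1-202 and Gata2-203 it also limited the TPM of Hand1 and Gata2, and the ratios that use them. Of the 8 factors 6 were detected; this was 3 with a minimum of 5 TPM, between 6 and 7 with a library left out, and 7 by kallisto, posterior mean TPM, a minimum of 0.5 TPM or TPM rescaled to nuclear protein-coding genes. The factors' share of nuclear protein-coding TPM was 0.0116% by kallisto and between 0.0123% and 0.0149% with a library left out. The log2 ratio of Hand2 over Hand1 was 1.61 ± 0.384 (SD, n = 2) by kallisto and 1.29 with a pseudocount of 1, and between 1.45 and 1.57 with a library left out. That of Gata2 over Gata3 lay between 0.60 and 0.93 with a library left out, and that of Gata2 and Gata3 over Gata4 and Gata6 between -0.79 and -0.44. The median difference between replicates over the factors, -0.17 as reported, was -0.21 by kallisto, -0.11 with TMM scaling, -0.24 with spike-in scaling, -0.22 with TPM rescaled to nuclear protein-coding genes and -0.25 with a pseudocount of 0.1. All 8 levels were higher by kallisto by more than their SD, and 2 by posterior mean TPM, Gata3 at 5.54 and Isl1 at 1.33. By kallisto Gata2-202 led Gata2 in replicate 1, with 31.0% against 28.5% for Gata2-203, and Gata2-203 in replicate 2, with 39.3% against 29.4% for Gata2-202. The cause of these differences was not tested. No paired analysis was possible because there is 1 group.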
